A study of Mus musculus with 6 samples.

Results

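The genes described here encode the machinery that brings glucose into a cell, splits it to pyruvate, exchanges the lactate made from pyruvate, restrains the entry of pyruvate into mitochondria, and stores and releases glucose as glycogen. The list holds 36 genes, and a gene was taken as measured where the array's annotation pairs at least 1 probe set with that gene alone. Where a gene had several such probe sets, the one with the highest mean over the 6 arrays was used. This left 32 of the 36 genes, out of 22180 genes measured in all. Gpi1, Pfkfb1 and Eno1 had no probe set of their own, and Aldoa only one shared with Aldoart1, so these 4 were not analysed here.

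RNA came from cultured cardiomyocytes of 1-day-old C57BL/6 mouse hearts, enriched by 1 h of pre-plating, a step in which other heart cells attach first. The FGF21 group (3 arrays) was held for 12 h in low oxygen (2%, with 93% N2 and 5% CO2) with fibroblast growth factor 21, a circulating hormone of the FGF family, at 1 µg/ml, and the control group (3 arrays) was held in the same gas for the same time without it. Both groups were hypoxic, so every difference below is between hypoxic cells with and without FGF21, and normoxic cells were not analysed here. Labels call the samples biological replicates without saying whether each had its own litter or culture, so a p-value here reflects the spread of these 6 samples, part of which may be technical.

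Values are log2 intensities after robust multi-array averaging (RMA), and array medians lay between 5.76 and 5.79 in the FGF21 group and between 5.81 and 5.83 in the control group. The labelled cell type was checked against its markers. All 12 cardiomyocyte markers on the list were measured, with list means of 10.965 to 11.003 in FGF21 arrays and 10.97 to 11.15 in control arrays, and Nppa (atrial natriuretic peptide) and Tnnt2 (cardiac troponin T) had mean values of 13.24 and 13.14. Genes of other heart cells were also bright, among them the fibroblast genes Postn (periostin) and Dcn (decorin) at 12.84 and 12.01. The 12 endothelial markers had list means of 7.07, 7.29 and 7.32 in FGF21 arrays and 7.61, 7.47 and 7.41 in control arrays, with no overlap, and 8 of the 12 were lower at an unadjusted p under 0.05, against 5.11% of all genes. That count was 6 to 9 with 1 array left out, with 7 without control array 1 and 6 without control array 2. Among them were Kdr, a receptor for vascular endothelial growth factor, with a difference of -0.61 ± 0.17 (SE), the cadherin Cdh5 with -0.44 ± 0.13, the transcription factor Erg with -0.35 ± 0.08 and the junction protein Esam with -0.33 ± 0.10. Pecam1, the brightest of the list after Cdh5, differed by -0.32 ± 0.10. In such bulk samples fewer cells of a type and less RNA per cell cannot be told apart. Of the 8 smooth muscle and pericyte markers, 1 was higher (Myh11, by 0.16 ± 0.06) and 2 were lower at that threshold. The 2 lower ones, named after their values were seen, are known from pericytes: the potassium channel gene Kcnj8 had a difference of -0.65 ± 0.091 (limma adjusted p 0.0685, the smallest of any marker measured) and Rgs5 one of -0.49 ± 0.15, both without overlap. Other pericyte genes of the list did not share this. Pdgfrb differed by -0.031 ± 0.079 and Cspg4 by 0.023 ± 0.11, both with overlap. These and Myh11 were also named after their values were seen. The 2 brightest of this list, Acta2 and Tagln, differed by -0.045 ± 0.06 and 0.057 ± 0.062, both with overlap. None of the 10 fibroblast markers stood out, 1 higher and 1 lower of the 8 leukocyte markers did, and none of the 6 red cell markers was measured. The 2 brightest leukocyte markers were Lyz2, at 0.141 ± 0.105 with overlap, and Cd68, the lower one, at -0.205 ± 0.063 without overlap.

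Glucose crosses the plasma membrane through facilitative transporters, is trapped by hexokinase, and is committed to glycolysis by phosphofructokinase, whose activity is set in part by the PFK-2 enzymes that make and remove fructose 2,6-bisphosphate. Under low oxygen, hypoxia-inducible factor (HIF) is known to raise many of these genes, including pyruvate dehydrogenase kinases, which divert pyruvate from the mitochondria towards lactate. The newborn heart relies on glycolysis more than the adult heart, and many steps are carried out by isoforms that differ between cell types, which is why the balance between isoforms was examined beside each gene's own difference.

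The known link to HIF gives the promoters of these genes a place here. HIF binds a short core, searched for as the 5 letters ACGTG and GCGTG on both strands in the 300-base window from 250 bases before to 50 bases after each start in RefSeq (GRCm38.p6). Of the 32 measured genes, 30 had a window, and Slc2a3 and Slc2a4 were without one. A match was present in 24 of the 30 windows (80.0%), against 50% of the windows of 16990 measured genes and 43.8% of all 27025 windows. Windows of the glucose genes also held more CpG dinucleotides, with a median of 20.5 against 13 for measured genes, and both cores contain CpG. A match is a string of letters and not a shown binding site. Windows of 4 genes are printed 5′ to 3′ on the gene's own strand, with matches on either strand in capitals: Pfkfb3 and Pgam2, which had the lowest and highest differences among genes with a window, Ldha, whose window held the most matches (7), and Pgk1, a classical hypoxia-responsive gene whose difference lay near 0. The palindrome CACGTG, present in the Ldha window, counts as a match on each strand.
Pfkfb3: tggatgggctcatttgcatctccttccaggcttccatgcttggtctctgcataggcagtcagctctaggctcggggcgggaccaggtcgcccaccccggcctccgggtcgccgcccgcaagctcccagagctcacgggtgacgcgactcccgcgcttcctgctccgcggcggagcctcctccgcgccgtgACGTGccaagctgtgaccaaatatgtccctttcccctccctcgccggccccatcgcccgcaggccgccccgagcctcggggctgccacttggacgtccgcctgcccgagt
Pgam2: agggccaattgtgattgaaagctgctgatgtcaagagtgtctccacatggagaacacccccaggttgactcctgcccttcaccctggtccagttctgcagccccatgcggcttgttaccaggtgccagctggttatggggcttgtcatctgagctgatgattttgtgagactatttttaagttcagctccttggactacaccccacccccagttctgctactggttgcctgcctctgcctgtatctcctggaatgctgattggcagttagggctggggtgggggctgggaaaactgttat
Ldha: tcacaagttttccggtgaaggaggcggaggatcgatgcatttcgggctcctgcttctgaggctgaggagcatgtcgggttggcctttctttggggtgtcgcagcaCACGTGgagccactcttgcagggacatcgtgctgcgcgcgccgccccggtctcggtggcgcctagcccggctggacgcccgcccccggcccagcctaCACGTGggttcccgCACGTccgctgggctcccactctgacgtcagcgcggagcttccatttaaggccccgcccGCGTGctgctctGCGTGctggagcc
Pgk1: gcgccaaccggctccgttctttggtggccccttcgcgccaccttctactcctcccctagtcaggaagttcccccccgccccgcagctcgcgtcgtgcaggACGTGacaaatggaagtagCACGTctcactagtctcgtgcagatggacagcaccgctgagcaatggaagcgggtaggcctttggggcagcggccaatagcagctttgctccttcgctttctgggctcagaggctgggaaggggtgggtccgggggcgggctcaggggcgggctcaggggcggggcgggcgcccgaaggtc
These windows lie at chr2:11553880-11554179 on the minus strand for Pfkfb3, chr11:5803747-5804046 on the minus strand for Pgam2, chr7:46845554-46845853 on the plus strand for Ldha and chrX:106186850-106187149 on the plus strand for Pgk1. No match was found in the Pgam2 window. The median difference between FGF21 and control was -0.03 over the 24 genes with a match and -0.026 over the 6 without, against 0.014 and -0.02 for all measured genes with and without one.

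All 32 genes had mean values above the medians of the arrays, which were taken over all 41345 probe sets. Among genes, 22 of the 32 lay above 90% of all genes, and the dimmest, Pfkfb4, was at or above only 46.0%. The mean level ran from 6.03 for Pfkfb4 to 13.22 for Gapdh. Probe sets differ in how brightly they report the same amount of RNA, so an order of levels between genes is an order of brightness and not of transcript number. The probe sets nearest to the array medians were those of Pfkfb4, Pfkfb2, Slc2a3, Pgam2 and Slc2a4.

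**Figure D1:**
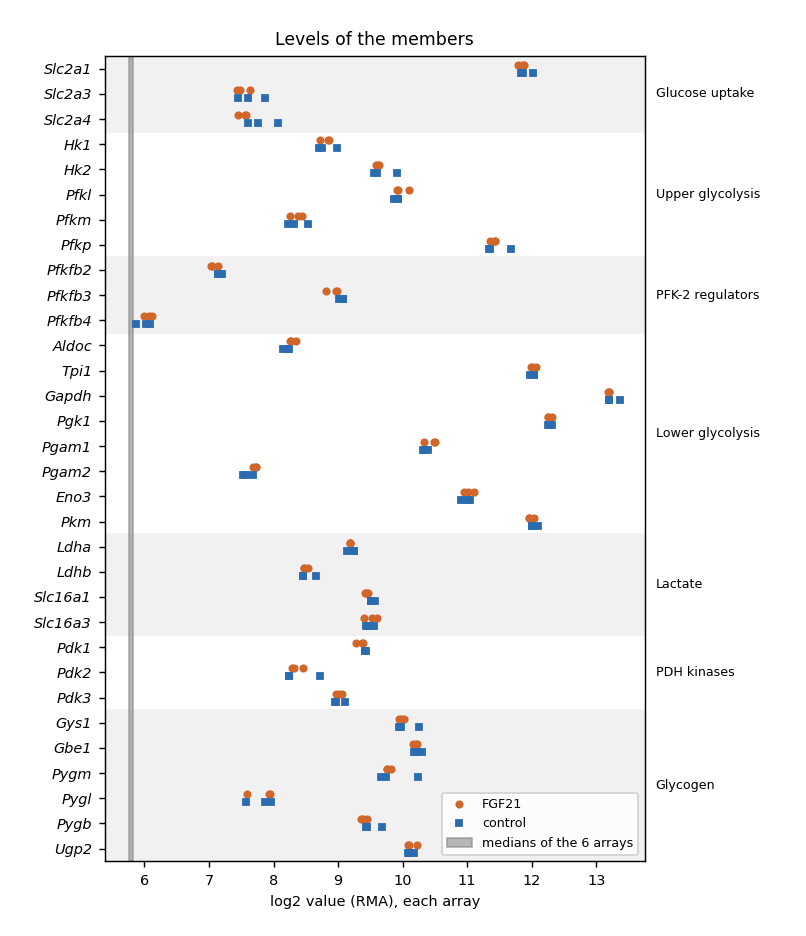
Log2 value of each glucose gene in each array (horizontal axis), with FGF21 arrays as circles above control arrays as squares. The grey band spans the medians of the 6 arrays. Most genes lie far to the right of the band, and Pfkfb4, at a mean of 6.03, lies nearest to it.

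With FGF21, none of the 32 glucose genes passed the test across all genes (limma, adjusted p under 0.05), and neither did any other gene, so 0.0% of the 22180 genes were called. Of the 32, 12 had higher and 20 had lower mean values with FGF21, and their median difference (log2) was -0.037 against -0.0056 for all genes. At an unadjusted p under 0.05, 1 of the 32 stood out, Slc2a4, against 11.7% of all genes, which split into 6.59% higher and 5.11% lower. After centring each array on its median, 70.3% of the genes at that unadjusted threshold were higher with FGF21, against 56.3% as deposited. With dim genes left out, 11090 genes remained, and 75.2% of those at that threshold were higher. The median difference of those 11090 genes was 0.036, against -0.043 for the glucose genes kept. Most of the 32 are bright, so all genes are not a background matched for brightness. The split of the glucose genes became 14 higher and 18 lower after median centring, and 5 higher and 27 lower after a repeated quantile normalization, so the split moved with the scaling. The 1 gene at an unadjusted p under 0.05 became 0 without FGF21 array 1 or without control array 1, and 2 without control array 2, where Pgam2 joined Slc2a4.

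Group values did not overlap for 7 of the 32 genes. Aldoc and Pgam2 were higher in every FGF21 array, which is 2 genes against a background of 8.99% of all genes. Slc2a4, Pfkfb2, Pfkfb3, Slc16a1 and Pdk1 were lower in every FGF21 array, which is 5 genes against a background of 8.14%. Both backgrounds are shares of all genes and are not matched for brightness. The differences were small. They ran from -0.28 for Slc2a4 to 0.13 for Pgam2, 31 of the 32 lay within 0.15 of 0 and 26 within 0.1, and 27 of the 95% intervals lay wholly within 0.3 of 0, a 1.23-fold change. The widest bounds the intervals allow were 1.43-fold lower, for Slc2a4, and 1.23-fold higher, for Pygl.

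**Figure D2:**
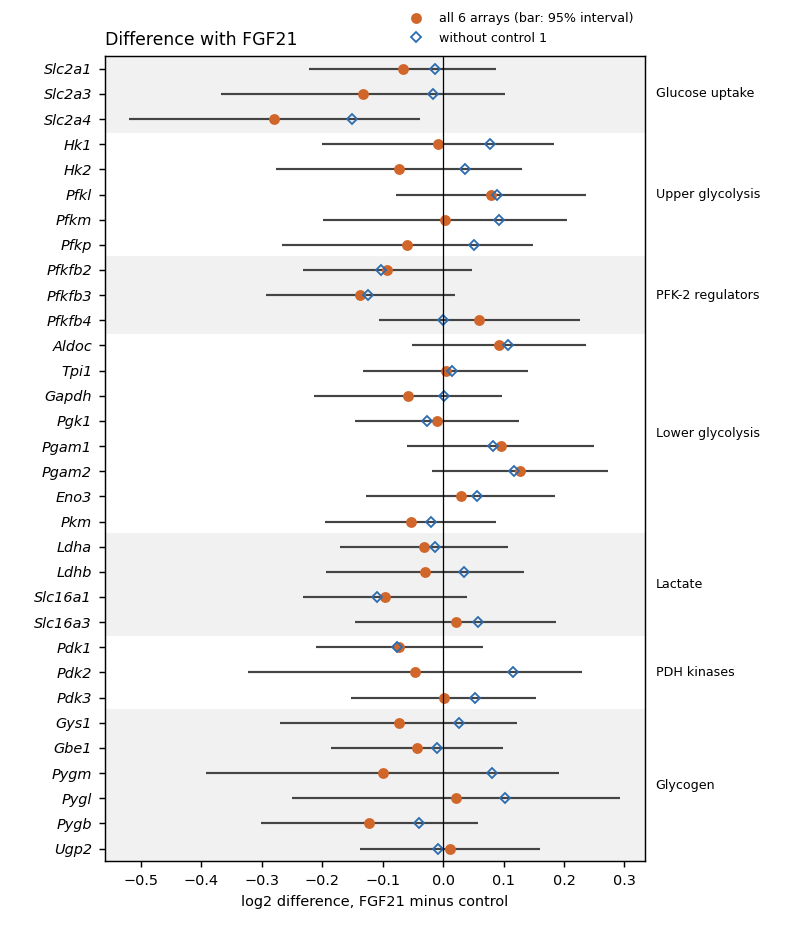
Log2 difference of each glucose gene, FGF21 minus control (horizontal axis), with filled circles for all 6 arrays and bars for the 95% interval. Open diamonds give the difference without control array 1. Slc2a4 alone has an interval that leaves out 0, and most diamonds lie to the right of their circles.

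The 3 glucose transporters all had lower mean values with FGF21. Slc2a4 encodes GLUT4, the transporter that insulin and contraction bring to the surface of muscle cells. Its values were 7.44, 7.56 and 7.58 in FGF21 arrays, against 8.06, 7.75 and 7.60 in control arrays. The groups did not overlap, but the gap between the highest FGF21 array and control array 3 was narrow and control array 1 stood above the rest. The difference was -0.28 ± 0.11 (SE), 1.21-fold lower with FGF21, with a 95% interval of -0.52 to -0.038, an unadjusted p of 0.0277 and a limma adjusted p of 0.369. Without control array 1 the difference was -0.15 (unadjusted limma p 0.0953), and without FGF21 array 1 it was -0.24 (unadjusted limma p 0.0895). The mean of the endothelial list was also lower with FGF21 and highest in control array 1, with 11 of its 12 markers lower with FGF21 and 8 of the 12 highest in that array. The mean of the cardiomyocyte list was highest in control array 1 too. Of its 12 markers, 8 were lower with FGF21, 0 of them at an unadjusted p under 0.05, and 7 were highest in that array. The part of the cells that either list marks, and of those with Kcnj8 and Rgs5, in the Slc2a4 difference was not tested.

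Slc2a3 encodes GLUT3, a high-affinity transporter. It read 7.43, 7.63 and 7.48 in FGF21 arrays, against 7.87, 7.60 and 7.45 in control arrays, with a difference of -0.13 ± 0.11. Slc2a1 encodes GLUT1, the transporter of fetal and many proliferating cells and a known HIF target, and it read 11.88, 11.85 and 11.79 with FGF21, against 12.01, 11.84 and 11.87 without, with a difference of -0.067 ± 0.069. In both genes control array 1 was the highest of the 6 and the groups overlapped. Without it, the differences were -0.017 for Slc2a3 and -0.013 for Slc2a1. A second, dimmer Slc2a1 probe set, with a mean of 6.34, differed by -0.014 ± 0.09, also with overlap.

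Of the 5 genes of upper glycolysis, 2 had higher and 3 lower mean values, and their smallest limma adjusted p was 0.69. Hexokinase traps glucose as glucose 6-phosphate. Its isoform gene Hk2 read 9.62, 9.63 and 9.59 in FGF21 arrays, against 9.91, 9.56 and 9.60 in control arrays, and Hk1, the isoform of most tissues, had a difference of -0.009 ± 0.086. The FGF21 arrays of Hk2 lay within the span of the control arrays, and only control array 1 stood high. Phosphofructokinase is encoded by Pfkl, Pfkm and Pfkp, named for the liver, muscle and platelet forms, and their differences were 0.08 ± 0.07, 0.003 ± 0.091 and -0.059 ± 0.093. Pfkp, the brightest of the 5, read 11.43, 11.35 and 11.43 in FGF21 arrays, against 11.68, 11.36 and 11.34 in control arrays, so it too was set apart mainly by control array 1. Intervals of the 5 genes allow changes up to 1.21-fold lower and 1.18-fold higher.

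The PFK-2 enzymes regulate phosphofructokinase. Pfkfb3, which favours synthesis of fructose 2,6-bisphosphate and is a known HIF target, read 8.81, 8.98 and 8.97 with FGF21, against 9.08, 9.07 and 9.01 without. Its values did not overlap, and FGF21 array 1 was the lowest. The difference was -0.14 ± 0.07, with a 95% interval of -0.29 to 0.019 and a limma adjusted p of 0.486. Pfkfb2, the form abundant in heart, read 7.05, 7.02 and 7.13 with FGF21, against 7.14, 7.14 and 7.197 without, again without overlap, and the difference was -0.092 ± 0.063. Without control array 1, these differences were -0.13 for Pfkfb3 and -0.10 for Pfkfb2. The third measured gene, Pfkfb4, had a difference of 0.06 ± 0.075 at a level close to the array median.

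Lower glycolysis carries 8 measured genes, 5 with higher and 3 with lower means, and its limma adjusted p was 0.488 at the smallest. Pgam2, the muscle form of phosphoglycerate mutase, read 7.74, 7.69 and 7.72 in FGF21 arrays, against 7.57, 7.67 and 7.52 in control arrays, without overlap. Its difference of 0.13 ± 0.065 had an interval of -0.018 to 0.27. Pgam1, the form of most tissues, had a difference of 0.095 ± 0.069 with overlapping groups. A second Pgam1 probe set, with a mean of 7.21, differed by 0.19 ± 0.10, also with overlap. Aldoc, an aldolase, which splits fructose 1,6-bisphosphate, read 8.25, 8.28 and 8.35 with FGF21, against 8.23, 8.23 and 8.14 without. Its groups were separated by a small gap, and the difference was 0.092 ± 0.064. The other genes lay close to 0: Pgk1, phosphoglycerate kinase, at -0.010 ± 0.061, Tpi1, triose phosphate isomerase, at 0.004 ± 0.061, Eno3, the muscle enolase, at 0.029 ± 0.07, Pkm, pyruvate kinase, at -0.053 ± 0.063, and Gapdh, glyceraldehyde 3-phosphate dehydrogenase, at -0.058 ± 0.069. Gapdh is often used as a reference gene, and it read 13.20, 13.20 and 13.19 in FGF21 arrays, against 13.37, 13.19 and 13.20 in control arrays. Other probe sets of Gapdh alone, with means of 13.01 and 10.65, differed by -0.061 ± 0.073 and 0.022 ± 0.12. Because Gapdh has many pseudogene copies, 8 further probe sets shared with other symbols were left out, and signal from copies cannot be separated from the gene.

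Lactate dehydrogenase interconverts pyruvate and lactate. Its A form, Ldha, a known HIF target, read 9.18, 9.19 and 9.18 with FGF21, against 9.25, 9.25 and 9.14 without, and the difference of -0.031 ± 0.062 lay within the spread of the control arrays. Ldhb, the form of the adult heart, differed by -0.03 ± 0.073. Slc16a1, which encodes the monocarboxylate transporter MCT1, read 9.41, 9.47 and 9.43 with FGF21, against 9.50, 9.52 and 9.58 without. All 3 FGF21 arrays lay below all 3 control arrays, by -0.096 ± 0.06 on average, with an adjusted p of 0.562 in limma. Slc16a3, which encodes MCT4, the transporter that glycolytic cells use to release lactate, overlapped between groups and differed by 0.021 ± 0.074.

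Pyruvate dehydrogenase kinases switch off pyruvate dehydrogenase by phosphorylation. Pdk1, the hypoxia-responsive form, read 9.28, 9.37 and 9.39 in FGF21 arrays, against 9.41, 9.43 and 9.42 in control arrays, without overlap and with a difference of -0.073 ± 0.062. A second, dim Pdk1 probe set, with a mean of 4.83, had the opposite sign at 0.16. Pdk2 read 8.32, 8.46 and 8.28 with FGF21, against 8.72, 8.24 and 8.24 without, so control array 1 alone lay above the FGF21 arrays, and Pdk3 differed by 0.001 ± 0.069.

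Glycogen is built by glycogen synthase from UDP-glucose and opened by phosphorylase. Of 6 genes, 2 had higher and 4 lower means. Gys1, the muscle glycogen synthase, read 10.03, 9.98 and 9.95 with FGF21, against 10.25, 9.98 and 9.94 without. Pygm, the muscle phosphorylase, read 9.82, 9.75 and 9.76 with FGF21, against 10.24, 9.74 and 9.66 without. In both genes control array 1 was the highest array by a wide margin, and the differences, -0.073 ± 0.088 and -0.1 ± 0.13, had overlapping groups. Pygb, the brain form, differed by -0.12 ± 0.08, and Pygl, the liver form, by 0.022 ± 0.12 with values from 7.57 to 7.96. Gbe1, the branching enzyme, and Ugp2, which makes UDP-glucose, differed by -0.043 ± 0.064 and 0.011 ± 0.067.

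One control array stood high for many of these genes. The mean over the 32 genes was 9.52, 9.53 and 9.51 in FGF21 arrays, and 9.65, 9.53 and 9.48 in control arrays. Control array 1 was the brightest of the 6 for 18 of the 32 genes, against 19.6% of all genes and 19.8% of the 4943 genes left after genes dimmer than 90% of the 32 were set aside. Control array 3 was the dimmest for 14 of the 32, against 17.6% of all genes. That share is not matched for brightness, and this array was the brightest for only 6.0% of those 4943 genes, against 18.3% of all genes. Control array 1 lay above the mean of the other 2 control arrays for 24 of the 32 genes, by a median of 0.10, against -0.004 for all genes. The excess over the higher of the other control arrays was 0.51 for Pygm, 0.48 for Pdk2, 0.32 for Pfkp, 0.31 for Hk2 and 0.31 for Slc2a4. The means of the endothelial, cardiomyocyte, and smooth muscle and pericyte marker lists were highest in this array too, at 7.61, 11.15 and 9.02, while those of the fibroblast list (10.29) and the leukocyte list (7.55) were not. How far this array differs in the make-up of its cells was not tested.

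**Figure D3:**
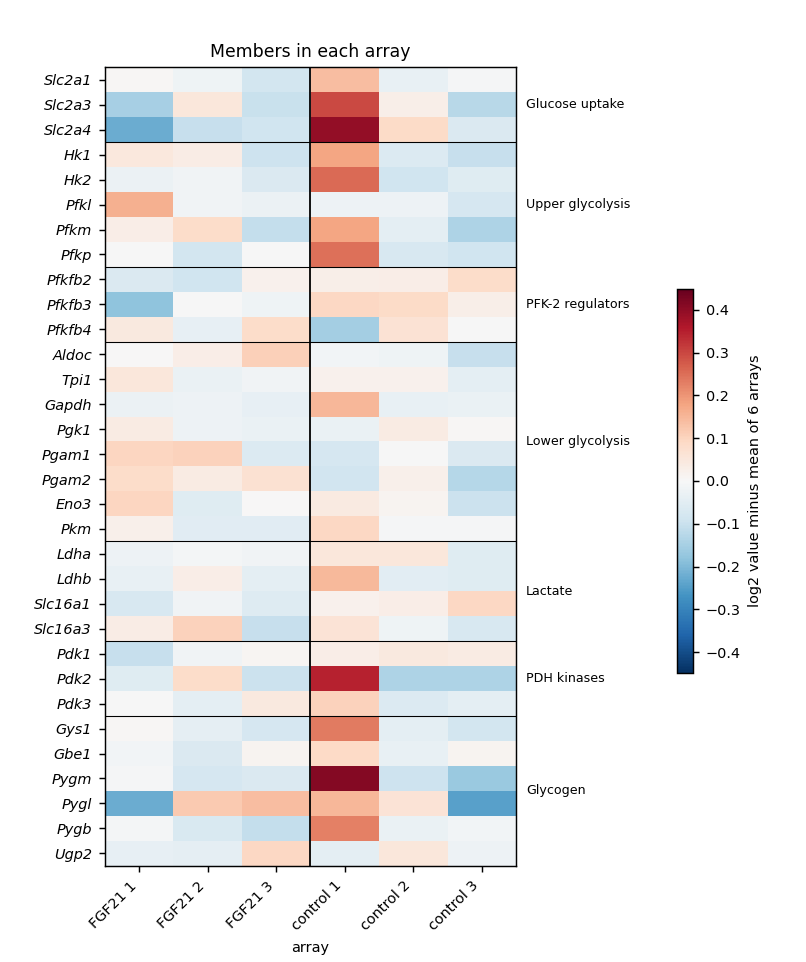
Each row is a glucose gene, each column an array, with the 3 FGF21 arrays left of the 3 control arrays, and colour gives the log2 value minus the gene's mean over the 6 arrays. Control array 1 has the most red cells (above the mean), and it is the brightest array for 18 of 32 genes.

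Without control array 1, the glucose genes numbered 18 higher and 14 lower with FGF21, and their median difference was 0.021 against -0.003 for all genes. None of the 32 glucose genes reached an unadjusted p under 0.05, against 2216 of all genes, and the smallest limma adjusted p among the 32 was 0.563. The genes that stayed furthest below 0 were Slc2a4 (-0.15), Pfkfb3 (-0.13), Slc16a1 (-0.11) and Pfkfb2 (-0.10), and those furthest above 0 were Pgam2 (0.12), Pdk2 (0.12) and Aldoc (0.11). The within-group SD had a median of 0.053 in the FGF21 group and 0.084 in the control group, and it was larger in control for 21 of the 32 genes, against 52.1% of all genes.

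Isoform balance was taken as the log2 difference between 2 probe sets within each array, and the change of that difference between groups was tested by an exact two-sided permutation test, whose smallest p with 3 arrays against 3 is 0.1. The 14 pairs that could be computed were tested. In all 14 the groups overlapped, and adjusted over the 14 pairs the exact p was 0.933 to 1.0. The size of a balance is not an abundance ratio, because probe sets differ in brightness, so only its change between groups is read here.

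GLUT1 over GLUT4 (Slc2a1 minus Slc2a4) had the largest change. The balance was 4.44, 4.29 and 4.21 in FGF21 arrays, against 3.95, 4.09 and 4.27 in control arrays, and the highest control array lay above the lowest FGF21 array. The mean change was 0.21 ± 0.11 (SE; exact permutation p of 0.2), and 0.24 with the mean of all probe sets of a gene. Pfkfb4 minus Pfkfb3 read -2.73, -2.99 and -2.86 with FGF21, against -3.21, -2.98 and -2.99 without, a change of 0.20 ± 0.11 (exact permutation p of 0.3). MCT4 over MCT1 (Slc16a3 minus Slc16a1) averaged 0.073 ± 0.094 in FGF21 arrays and -0.044 ± 0.10 in control arrays (SD), a change of 0.12 (exact permutation p of 0.2). Hk2 minus Hk1 changed by -0.064 ± 0.045 (SE; exact permutation p of 0.2). Ldha minus Ldhb, the balance of the A and B forms of lactate dehydrogenase, averaged 0.69 ± 0.035 with FGF21 and 0.69 ± 0.098 without (SD), with a change of -0.001. Liver over muscle phosphorylase (Pygl minus Pygm) changed by 0.12 ± 0.18, the widest error of the pairs.

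**Figure D4:**
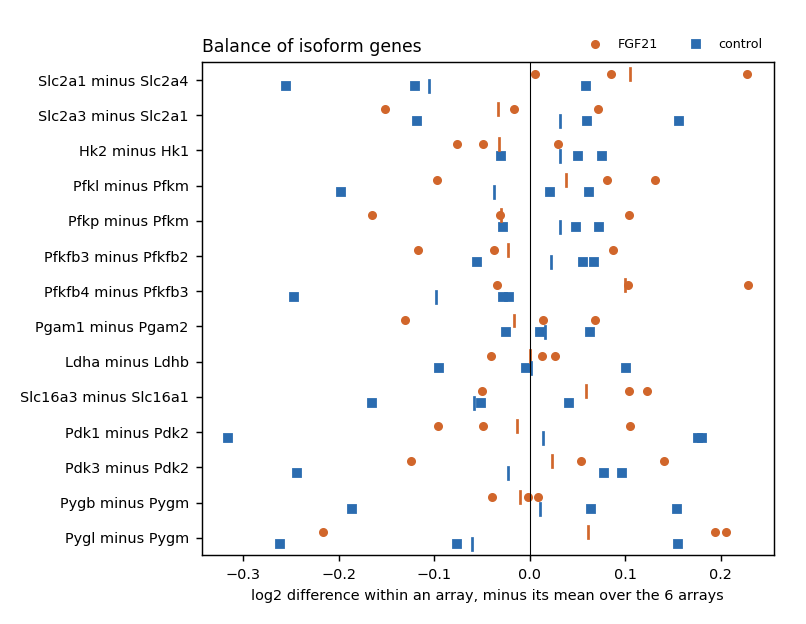
Log2 difference between 2 isoform probe sets within each array, minus its mean over the 6 arrays (horizontal axis), for 14 pairs. Circles are FGF21 arrays, squares control arrays and short ticks group means. The groups overlap in all 14 pairs.

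Genes of neighbouring pathways gave the context. Of 92 listed genes in 7 lists, 83 were measured, and none passed the limma test at an adjusted p of 0.05, with 0.172 as the smallest. At an unadjusted p under 0.05, 8 (9.64%) were higher and 4 (4.82%) lower with FGF21, against 6.59% and 5.11% of all genes, and the median difference was 0.002 against -0.0056 for all genes. The lists were other glucose transport genes, other glycolysis genes, other lactate and pyruvate genes, pyruvate dehydrogenase, other glycogen genes, the pentose phosphate pathway and the hexosamine pathway. The genes at that threshold were 2 lower of 12 in glucose transport, 1 lower of 17 in glycolysis, none of 12 in lactate and pyruvate, none of 9 in pyruvate dehydrogenase, and 1 higher and 1 lower of 19 in glycogen.

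Txnip, whose protein restrains glucose uptake and which is induced by glucose, had the smallest p of the first list. It read 11.30, 11.32 and 11.32 in FGF21 arrays, against 11.57, 11.54 and 11.46 in control arrays, with a difference of -0.21 ± 0.062 and no overlap. The adjusted p was 0.264 in limma, and no array left out moved the difference outside -0.24 to -0.19. Bsg, the partner protein of MCT1 and MCT4, differed by -0.097 ± 0.063, and Pdk4 by -0.054 ± 0.071, Mpc1, of the mitochondrial pyruvate carrier, by 0.007 ± 0.11 and Tigar, which lowers fructose 2,6-bisphosphate, by 0.002 ± 0.066. Mpc2 was not analysed here. The other genes of the smallest p in their lists were dim or small in difference, with Slc2a12 at -0.24, Gapdhs at -0.32, Gpd1l at -0.15, Ldhd at 0.15, Slc16a6 at -0.13, Dld at 0.12, Pdhb at -0.056 and Phkg1 at -0.22. Stbd1, which binds glycogen, had a difference of 0.33 ± 0.10, with values of 8.23, 8.42 and 8.49 in FGF21 arrays, against 8.27, 7.94 and 7.94 in control arrays.

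The pentose phosphate and hexosamine pathways branch from glycolysis. Of 9 pentose phosphate genes listed, 7 were measured, and G6pdx and Tkt were not. Of the 7, 6 were higher with FGF21, 4 of them at an unadjusted p under 0.05, against 6.59% of all genes, and the median difference was 0.17. The mean of the list was 7.47, 7.49 and 7.50 in FGF21 arrays, against 7.33, 7.35 and 7.33 in control arrays, so the groups did not overlap. This was not particular to the list. Means of the hexosamine list were also higher in every FGF21 array (8.986, 9.106 and 9.127 against 8.959, 8.974 and 8.945). Those of the other glucose transport genes were lower in every FGF21 array (6.831, 6.831 and 6.821 against 6.896, 6.897 and 6.852). Of the pentose phosphate genes, Rpe, ribulose-phosphate epimerase, differed by 0.27 ± 0.073 and Taldo1, transaldolase, by 0.24 ± 0.084. The other 2 at that threshold, Pgd (0.20) and Rpia (0.17), were named after their values were seen. The number at an unadjusted p under 0.05 was 2 without FGF21 array 1, 1 without FGF21 array 2, 2 without control array 1 and 2 without control array 3. With dim genes left out it was 3. Of the 11090 genes then kept, 1700 were at that threshold, and 75.2% of those were higher, so 6.59% is not a share matched for brightness. The median difference of the pentose phosphate list was then 0.17, against 0.036 for all genes kept. Of 7 hexosamine genes, 5 were higher and 2 lower with FGF21, with a median difference of 0.041, which was 0.005 after a repeated quantile normalization. At that threshold 3 were higher, and 2 or 3 with 1 array left out. Gfpt2, an isoform of the enzyme that opens the hexosamine pathway, read 10.04, 10.09 and 10.06 with FGF21, against 9.73, 9.83 and 9.75 without, a difference of 0.29 ± 0.061 with no overlap and an adjusted p of 0.172 in limma. Pgm3 differed by 0.23 ± 0.074 and Gnpnat1, named after its value was seen, by 0.32 ± 0.13, while Gfpt1, the other isoform, was at -0.052 ± 0.072 and Ogt, which attaches the sugar to proteins, at -0.08 ± 0.066, both also named after their values were seen. The direct comparison of these lists with the 32 genes was not tested.

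**Figure D5:**
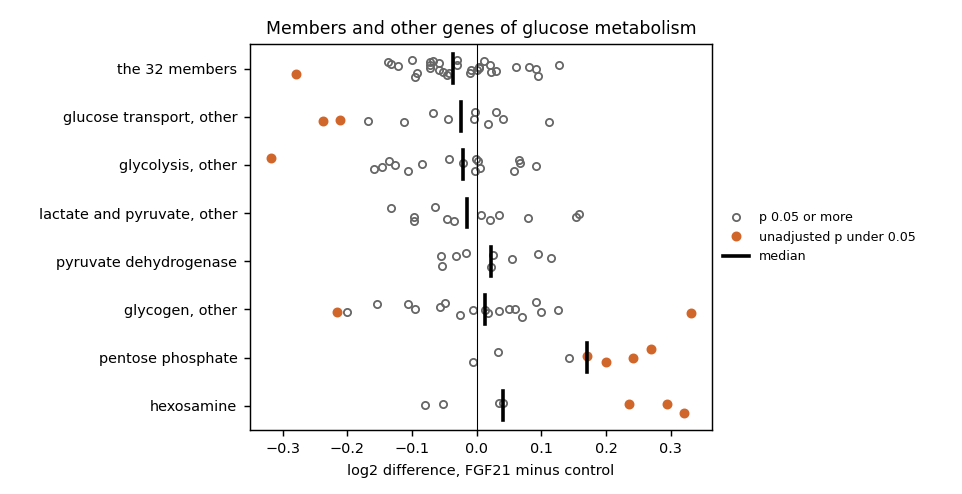
Log2 difference of each gene, FGF21 minus control (horizontal axis), for the 32 glucose genes and 7 neighbouring lists. Filled points mark an unadjusted p under 0.05, and thick bars the median of a list. The pentose phosphate median lies at 0.17, to the right of the others.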

How the data were processed

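The authors deposited log2 values made with RMA in R 3.2.2 (affy), per the submitters' processing notes. This method subtracts background, gives all arrays 1 distribution and combines probes, so a global shift may be removed and dim genes show smaller differences. Which chip definition and build served is not given in the sources used here. The table had 41345 probe sets and 6 columns, each matched to a sample (0 columns without one). The number of arrays limits the precision.

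Probe sets were named through the platform annotation, 23521 with 1 symbol, 1814 with several and 16010 not listed. Gene numbers were found in RefSeq (GRCm38.p6) for 23328, and 0 symbols changed. Of the 22180 genes, 1082 had more than 1 probe set.

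FGF21 minus control was fitted on all genes with limma 3.58.1 in R 4.3.3 (lmFit, eBayes, no covariate), two-sided, with Benjamini-Hochberg adjustment over all 22180 genes and a threshold of 0.05, and checked on simulated data. Errors are SE unless stated, intervals are at 95%, and each group has 3 arrays. Of 16 isoform pairs listed, 14 had both genes measured. Aldoc with Aldoa and Eno1 with Eno3 could not be computed. Named genes are all 36 listed, a fixed set of 6 others (Pdk4, Txnip, Mpc1, Mpc2, Bsg and Tigar), the 2 of smallest p in each neighbouring list, the 2 brightest of each marker list and the 4 endothelial markers of smallest p. Genes outside this rule are marked as named after their values were seen. The members and lists were chosen with earlier results of these data known. Alternatives were the replicate block, leaving out each array, quantile normalization again, median centring, leaving out dim genes, the mean of all probe sets of a gene, and eBayes with trend and robust set. Their use on the neighbouring and marker lists was added after seeing the data.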

Additional observations from a re-analysis of the deposited data

How the results depend on the processing

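Of the 32 glucose genes, 14 kept the sign of their difference in all 12 alternatives and 18 changed it in at least 1, of which the largest difference as reported was the -0.1 of Pygm. The number of genes called among all 22180, which was 0 by limma with 2594 at an unadjusted p under 0.05, was 5 after quantile normalization again, 2 after median centring, 58 with dim genes left out, 2 with the mean of all probe sets, 16 with a trend and robust prior, and 0 to 2 with an array left out (2 without FGF21 array 1). No glucose gene was called in any of these. At an unadjusted p under 0.05, 3 glucose genes stood out after quantile normalization again and 2 after median centring, and 0 to 2 with an array left out. Their median difference was -0.073 after quantile normalization again, and with an array left out it ran from -0.068 without control array 3 to 0.021 without control array 1, and the pentose phosphate count from 1 to 4. With the replicate number as a block, Slc2a4 differed by -0.2786 with an unadjusted limma p of 0.0303 and 1 glucose gene stood out. Same-numbered arrays deviated with correlations of 0.103, 0.158 and 0.00653, against -0.16 to 0.0416 for arrays of unlike number. The labels state no pairing, and these values do not settle whether the numbers pair the arrays. With the block, 2902 of all genes were at an unadjusted limma p under 0.05, against 2594 without it. The block changed no call.

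Reversed signs after median centring were Hk1 at 0.011 and Pgk1 at 0.010. After quantile normalization again they were Pfkm at -0.060, Tpi1 at -0.024, Eno3 at -0.006, Slc16a3 at -0.032, Pdk3 at -0.056, Pygl at -0.036 and Ugp2 at -0.020. With the mean of all probe sets they were Pdk1 at 0.043 and the balances Pgam1 minus Pgam2 at 0.015 and Pdk1 minus Pdk2 at 0.089. With an array left out, the signs turned for these genes, with differences from the lowest to the highest of -0.064 to 0.078 (Hk1), -0.14 to 0.036 (Hk2), -0.065 to 0.092 (Pfkm), -0.12 to 0.051 (Pfkp), -0.001 to 0.11 (Pfkfb4), -0.020 to 0.020 (Tpi1), -0.089 to 0.001 (Gapdh), -0.032 to 0.006 (Pgk1), -0.013 to 0.063 (Eno3), -0.064 to 0.035 (Ldhb), -0.026 to 0.079 (Slc16a3), -0.13 to 0.12 (Pdk2), -0.029 to 0.052 (Pdk3), -0.13 to 0.027 (Gys1), -0.21 to 0.081 (Pygm), -0.095 to 0.14 (Pygl) and -0.033 to 0.038 (Ugp2). For isoform balances, the ranges were -0.003 to 0.14 (Pfkl minus Pfkm), -0.13 to 0.005 (Pfkp minus Pfkm), -0.10 to 0.002 (Pfkfb3 minus Pfkfb2), -0.075 to 0.025 (Pgam1 minus Pgam2), -0.048 to 0.049 (Ldha minus Ldhb), -0.19 to 0.057 (Pdk1 minus Pdk2), -0.064 to 0.12 (Pdk3 minus Pdk2) and -0.12 to 0.050 (Pygb minus Pygm). The cause was not tested. Array number, and signal close to background for dim genes, limit what could be seen.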
